A study of Mus musculus with 4 samples.

Results

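The sorting nexins, the Vps proteins and the CHMP proteins were followed in a neuroblastoma line of the mouse, Neuro2A, that had been depleted of 4.5SH. This short rodent RNA codes for no protein and resembles the B1 short interspersed element. A gene was taken as a member when at least 1 probe set was annotated to a single gene symbol beginning with Snx, Vps or Chmp and followed by a digit. This gave 75 genes with 159 probe sets, out of 18193 genes with 34945 probe sets that carry a single symbol. RNA of the cytoplasm was hybridised to 4 Affymetrix arrays: 2 held cells depleted of endogenous 4.5SH (the knockdown) and 2 held control cells of the same line. By the protocols in the labels, cells received 30 nM of antisense oligonucleotide by lipofection, were lysed with detergent and spun so that the nuclei formed the pellet, and cRNA was labelled from the poly(A)+ RNA. Which oligonucleotide the control received was not found in the labels. The labels call the replicates biological and say nothing more of their origin, and p-values therefore reflect only the spread between these samples. The depleted RNA has no named probe set and was not analysed here, so that loss of 4.5SH cannot be told apart from other effects of its oligonucleotide.

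Proteins taken up from the cell surface reach the early endosome, from which they are sent back to the surface, to the Golgi apparatus or on to the lysosome. Retromer, a trimer of Vps26, Vps29 and Vps35, and the sorting nexins, which bind phosphoinositides on endosomes through a PX domain, sort cargo for the first 2 routes. The ESCRT complexes gather ubiquitinated cargo and bud it into the endosome's lumen, CORVET and HOPS tether early and late endosomes before they fuse, and GARP tethers endosome-derived vesicles at the Golgi. In neurons these machines handle receptors and adhesion proteins over long distances, and mutations in several of them, among them VPS35, CHMP2B, SNX14 and the VPS13 genes, are known from inherited neurological disease in humans.

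Promoter sequence was available from RefSeq (GRCm38.p6) for 49 of the 75 members, in 60 windows of 250 bases that end just before an annotated transcript start. The windows were searched for the E-box CACGTG, which reads the same on both strands and is the core of the element that the TFEB family of factors recognises at lysosomal genes. It was present in 7 of the 60 windows (11.7%), in Snx5, Snx8, Snx18, Vps16, Vps26a and Vps33a, and in 6.02% of the 32851 windows of all genes. The longer form TCACGTGA, which contains the E-box, was present in 4 windows of members (6.67%) and in 0.785% of all windows. The 4 windows belong to 3 genes, Vps16, Vps33a and Vps26a, the last with 2 windows that overlap. These matches describe the letters in the windows and show no binding. Windows of 3 members that hold the motif and differ in their response are printed here with 1 window that lacks it, all 5′ to 3′ on the strand of the gene in lower case, with each CACGTG in capitals. Vps16 fell and lies at chr2:130424070-130424319 on the plus strand, with the motif starting 18 bases before the transcript start. Vps26a was called higher and lies at chr10:62486806-62487055 on the minus strand, with the motif starting 182 bases before the start. Vps33a did not pass the test and lies at chr5:123573016-123573265 on the minus strand, with motifs starting 28 and 12 bases before the start. Chmp1a, the largest rise among the members, lies at chr8:123212789-123213038 on the minus strand and has no CACGTG in this window.
Vps16: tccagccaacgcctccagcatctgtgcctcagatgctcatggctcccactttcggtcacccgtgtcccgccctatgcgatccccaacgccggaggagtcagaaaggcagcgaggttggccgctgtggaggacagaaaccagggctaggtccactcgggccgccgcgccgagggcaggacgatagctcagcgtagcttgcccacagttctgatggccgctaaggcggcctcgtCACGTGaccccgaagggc
Vps26a: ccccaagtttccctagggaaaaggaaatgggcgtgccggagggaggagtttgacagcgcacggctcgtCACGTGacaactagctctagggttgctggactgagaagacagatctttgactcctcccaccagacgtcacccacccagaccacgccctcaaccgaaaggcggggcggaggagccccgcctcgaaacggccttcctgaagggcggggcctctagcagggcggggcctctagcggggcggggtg
Vps33a: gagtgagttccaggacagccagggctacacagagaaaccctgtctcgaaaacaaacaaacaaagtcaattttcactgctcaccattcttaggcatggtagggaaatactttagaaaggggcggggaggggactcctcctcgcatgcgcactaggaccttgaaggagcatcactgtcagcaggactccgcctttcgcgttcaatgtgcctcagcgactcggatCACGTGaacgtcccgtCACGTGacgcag
Chmp1a: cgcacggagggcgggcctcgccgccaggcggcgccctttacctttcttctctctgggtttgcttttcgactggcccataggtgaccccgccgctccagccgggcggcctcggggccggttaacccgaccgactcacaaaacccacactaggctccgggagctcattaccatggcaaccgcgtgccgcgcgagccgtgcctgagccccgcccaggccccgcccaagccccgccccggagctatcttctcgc

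The deposited values are MAS5 signals, 1 intensity per probe set on a linear scale. The 2% trimmed mean signal was 128 and 132 on the knockdown arrays and 149 and 143 on the control arrays. Precision is limited by there being only 4 arrays. On the log2 scale 2 arrays of the same group correlated at 0.991 over the probe sets, in either group, and arrays of different groups at 0.970 to 0.973. Marker genes of neurons and neuroblastoma summed to 6425.3 and 6428.8 in the knockdown, against 7131.5 and 7115.4 in the control over 9 genes, and the sympathetic factor Hand2 read between 1419.2 and 1630.8 on all arrays. Of 8 measured genes of that list 1 was called higher and 2 lower, and Gata3 was below the filter on low signals. Elavl4 was the rise, with 95.8 and 71.3 in the knockdown against 30.1 and 19.9 in the control, called at all 3 of its tested probe sets. The falls were Stmn2 and Ncam1, the latter with 1 of its 4 tested probe sets called lower and 1 higher. Stmn2 held much of the neuronal sum, at 3571.3 and 3603.5 in the knockdown against 4038.4 and 4030.5 in the control. Fibroblast markers (7 genes) summed to 249.1 and 277.7 against 260.6 and 281 with 0 of 3 measured genes called, and immune markers (5 genes) to 1096.2 and 1128.6 against 1319.8 and 1477.2, with Cd68 called lower and the leukocyte gene Ptprc between 0.3 and 8.1. Cd74 held much of the immune sum, at 744.4 and 754.2 in the knockdown against 643.6 and 709.8 in the control, and was not called. Of 4 nuclear noncoding RNAs, summing to 284.8 and 274 in the knockdown, against 498.4 and 485.2 in the control, Malat1 and Neat1 were called lower and Xist higher at their brightest probe sets. Of the 5 tested probe sets of Malat1 2 were lower and 1 higher, and of the 3 of Xist 1 was called. The part of these differences in the results below was not tested.

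Probe sets whose mean signal over the 4 arrays reached the median were tested on log2(signal + 16), a scale on which the change of dim genes is understated, and a gene's value is that of the brightest of its tested probe sets. A gene was called higher or lower at an adjusted p of 0.05 in limma, adjusted over all 22525 tested probe sets. Values after ± are standard errors of that fit on 2 against 2 arrays unless marked SD, and a negative log2 fold change means lower in the knockdown.

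Of the 75 members, 72 were measured and 3 (Snx20, Snx31 and Vps26c) were below the filter. In the knockdown 5 members (6.94%) were higher and 31 (43.1%) were lower, while 36 did not pass the test. Over all 11814 genes tested, 8.95% were called higher and 32.9% lower. The median log2 fold change was -0.26 over the members and -0.17 over all genes, and 53 members lay below 0 and 19 above. Set against the median of all genes, 41 members lay below it and 31 above it. The signals of the knockdown and control arrays did not overlap for 62 members (86.1%), against 71.4% of all genes. On the log2(signal + 16) scale Vps13d was the single member called with a fold change of at least 2, and none was called higher by as much. With a pseudocount of 1 Vps16 (-1.02) and Snx21 (-1.07) also reached it. In bulk RNA of the cytoplasm, fewer cells that express a gene, less of its RNA per cell and a larger share of it left with the nuclei cannot be told apart.

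The scale of the arrays bears on every count. Quantile scaling moved the median of all genes to -0.04 and spike-in scaling, which sets the arrays on 9 hybridization controls, moved it to -0.29. Under quantile scaling 9 members were higher and 20 lower (12.5% and 27.8%, against 16.8% and 21.4% of all genes). Under spike-in scaling 4 members were higher and 40 lower (5.56% and 55.6%, against 4.05% and 42.2% of all genes). Under both, the median of the members stayed below that of all genes. Of the calls on the deposited scale, 3 of the 5 higher and 12 of the 31 lower kept their call in every alternative that measured them. The 3 were Chmp1a, Chmp1b and Vps4b, and the 12 were Snx1, Snx8, Snx9, Snx12, Snx14, Snx17, Snx19, Vps11, Vps13b, Vps13d, Vps16 and Vps28. Quantile scaling took Snx8 to -0.25, Snx17 to -0.29, Vps11 to -0.36 and Vps28 to -0.22, all still called lower.

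**Figure D1:**
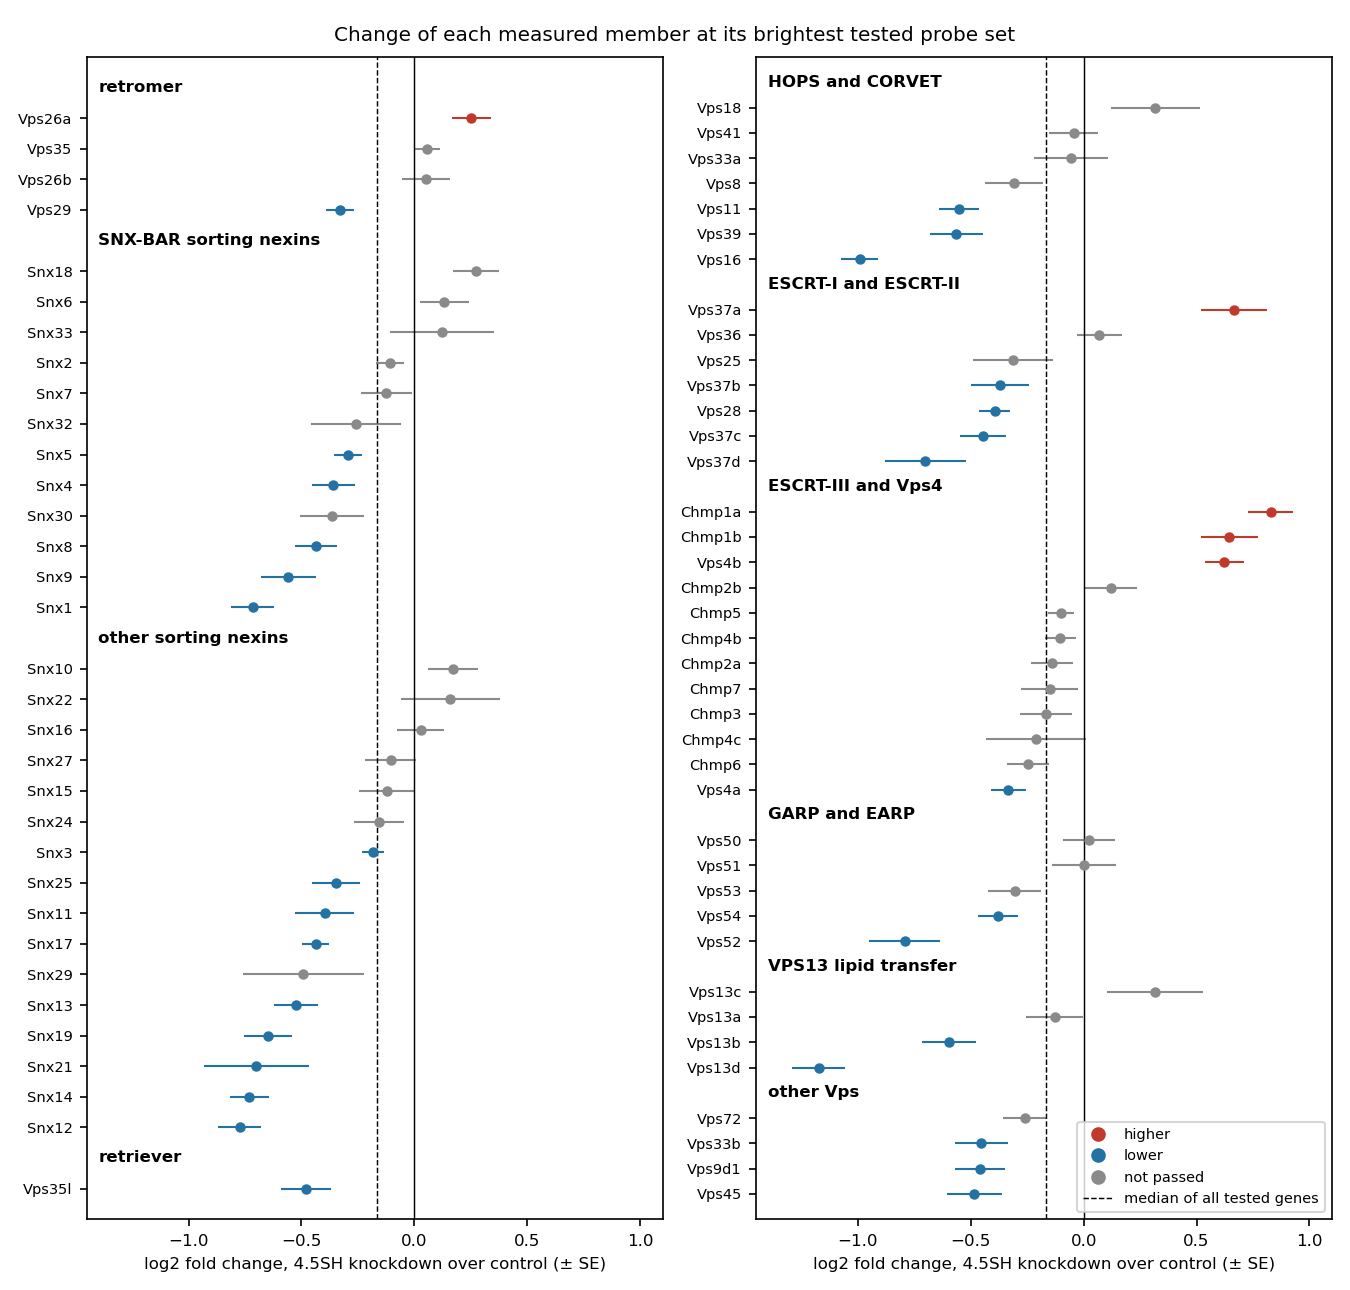
Log2 fold change of each measured member, knockdown over control, at its brightest tested probe set, with the standard error of the limma fit and colours for the call. The points run from -1.17 for Vps13d to 0.83 for Chmp1a, and none of the 28 measured sorting nexins is called higher on the deposited scale (3 are with quantile scaling).

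The subunits of retromer did not move together. Vps26a rose, Vps29 fell, and Vps35 and Vps26b did not pass at their brightest probe sets. That made 1 of 4 genes higher and 1 lower (25% each, against 8.95% and 32.9% of all genes), with a median log2 fold change of 0.05. Vps26a, the arrestin-like subunit that joins the trimer to membrane-bound sorting nexins, had signals of 483.9 and 463.7 in the knockdown, against 400.6 and 389.1 in the control. The knockdown arrays were both above the control arrays, and the log2 fold change was 0.25 ± 0.09 (adjusted p = 0.0353, limma). This call was lost with spike-in scaling (0.11, adjusted p = 0.494), with a replicate block (adjusted p = 0.0505) and without any of the 4 arrays in turn (0.22 without knockdown replicate 1, 0.28 without knockdown replicate 2, 0.27 without control replicate 1 and 0.23 without control replicate 2).

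Vps26b, the paralogue of Vps26a, had signals of 224.6 and 223.9 in the knockdown, against 225.4 and 206.4 in the control. The groups overlapped, the log2 fold change was 0.05 ± 0.11 (adjusted p = 0.744, limma), and its other 2 tested probe sets read -0.09 each. Vps29, the subunit that binds the regulators of retromer, had signals of 1898.4 and 1877.4 in the knockdown, against 2498.7 and 2253.6 in the control. It fell by 0.33 on the log2 scale (SE 0.06, adjusted p = 0.00104, limma), and its 3 tested probe sets were all called lower, at -0.33, -0.39 and -0.71. Quantile scaling took the first of these to -0.16, still past the test, and the call was lost only without the intensity trend (adjusted p = 0.0761).

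Vps35, the scaffold on which the other two subunits sit, had signals of 2152 and 2158.2 in the knockdown, against 2097.6 and 2046.8 in the control. The log2 fold change was 0.06 ± 0.06 and did not pass (adjusted p = 0.472, limma). Its second probe set had signals of 170.9 and 195.9 in the knockdown, against 119.8 and 129.5 in the control, and was called higher by 0.50 (adjusted p = 0.00616). Vps35 was also called higher at the brightest probe set after quantile scaling (0.23) and with centring on the tested probe sets (0.19), and as the mean of both probe sets (0.28). Spike-in scaling turned the median of the 4 retromer genes to -0.09, with none called higher and Vps29 lower.

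**Figure D2:**
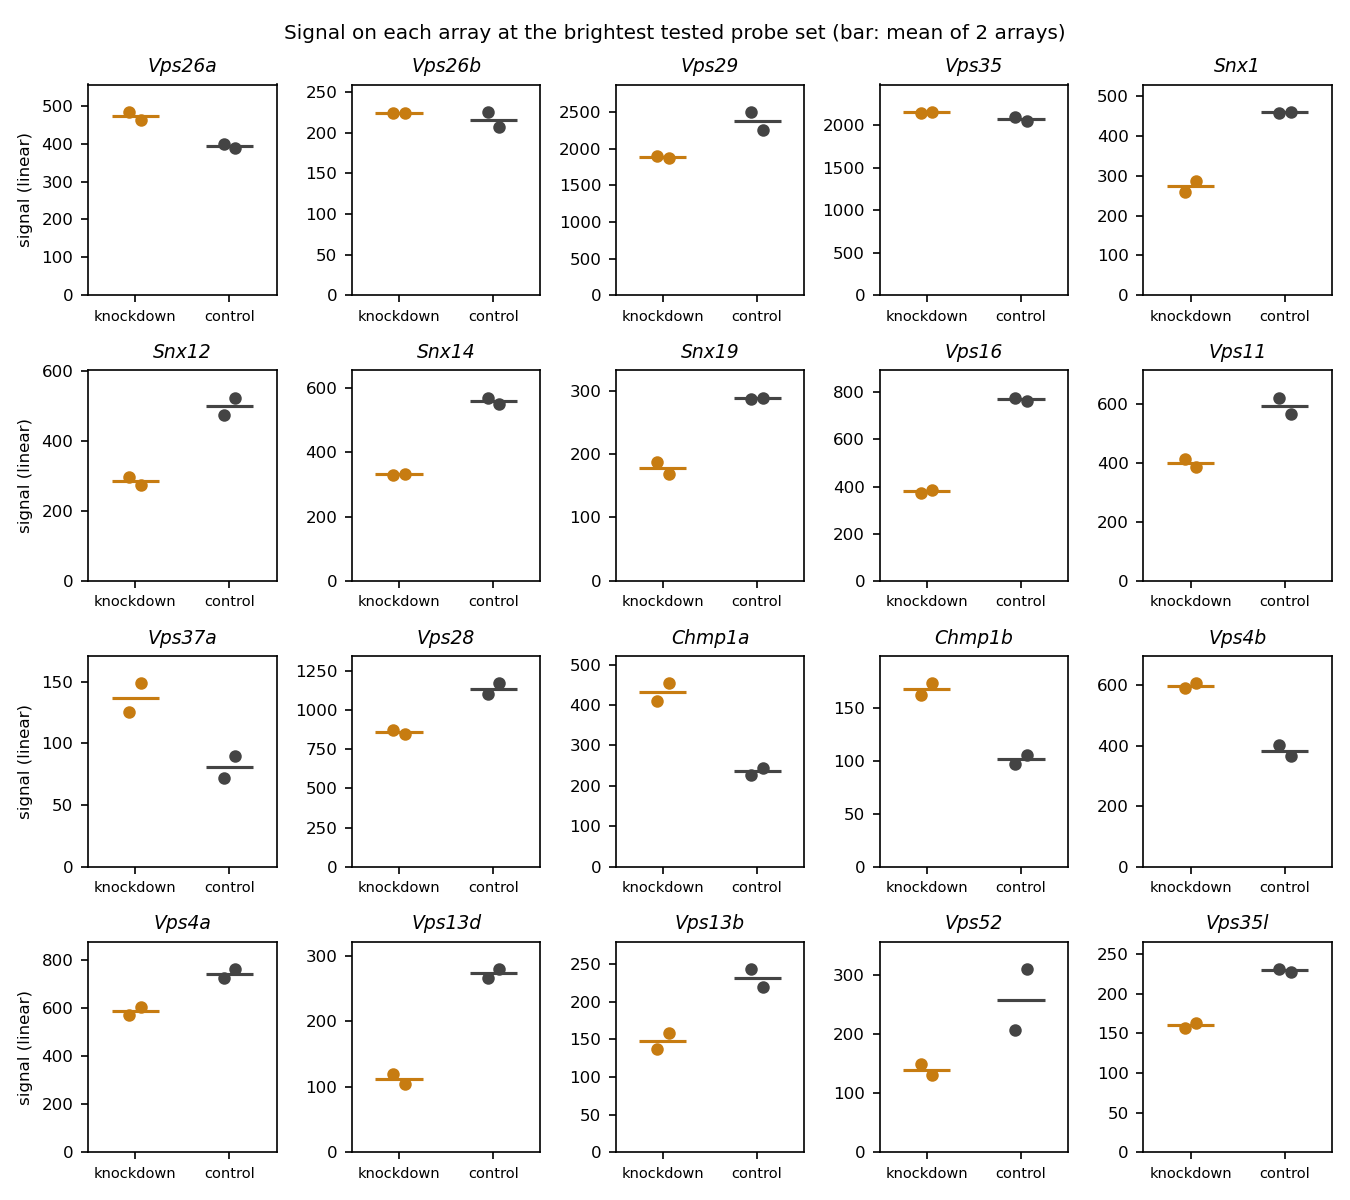
Linear signal on each array for selected members at the brightest tested probe set, with knockdown on the left and control on the right of each panel; points are single arrays and bars are means of 2 arrays. Vps16 and Vps13d lie lower in the knockdown and Chmp1a and Vps4b higher with wide gaps, while the arrays of Vps26b overlap.

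The SNX-BAR sorting nexins bend membranes into tubules through a BAR domain. Of 12, 5 (41.7%, against 32.9% of all genes) were lower and none higher, with a median of -0.28. With quantile scaling 3 were lower (25%, against 21.4% of all genes) and 2 higher (16.7%, against 16.8%). Snx1, a membrane-bending partner of retromer, had signals of 259.9 and 288 in the knockdown, against 458.4 and 460.9 in the control. Both knockdown arrays lay far below both control arrays, and the log2 fold change was -0.72 ± 0.09 (adjusted p = 6.13e-05, limma). Snx2, its closest relative, did not pass, with 1333.6 and 1380.6 in the knockdown against 1500.9 and 1425.6 in the control, a log2 fold change of -0.11 ± 0.06 and an adjusted p of 0.218.

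Snx5, which pairs with Snx1 or Snx2 and binds cargo such as the cation-independent mannose 6-phosphate receptor, had signals of 1249.7 and 1237.9 in the knockdown, against 1490.8 and 1564.8 in the control. It was called lower by -0.29 ± 0.06 (adjusted p = 0.0026, limma). Snx5 lost the call with quantile scaling (-0.14), with centring on the tested probe sets (-0.16), without the intensity trend and as the mean of its probe sets (-0.11). Snx6, which can take the place of Snx5, read 0.13 ± 0.11 with overlapping groups, and passed as higher only with quantile scaling (0.32). The other falls in this class were Snx9 (-0.56, adjusted p = 0.00275), an endocytic protein that binds dynamin, Snx8 (-0.44, adjusted p = 0.00244) and Snx4 (-0.36, adjusted p = 0.00901), which recycles the transferrin receptor and acts in autophagy. A second Snx9 probe set of similar signal read -0.36 and did not pass (adjusted p = 0.0622, limma). Snx4 lost its call with quantile scaling (-0.18) and without knockdown replicate 1 (-0.26, adjusted p = 0.0982), among others. Snx18, a relative of Snx9, lay the other way at 0.27 ± 0.10 and did not pass (adjusted p = 0.0527), with 306.3 and 311.2 in the knockdown against 267.8 and 239 in the control. It passed as higher with quantile scaling (0.45) and centring (0.29 on all probe sets, 0.40 on the tested ones), and without control replicate 1 (0.35). The other SNX-BAR genes that did not pass were Snx7 (-0.12), Snx30 (-0.36, adjusted p = 0.0596), Snx32 (-0.26) and Snx33 (0.12), the last with overlapping groups.

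Of the 18 sorting nexins without a BAR domain 16 were measured, with a median of -0.37. Of these, 9 (56.2%, against 32.9% of all genes) were lower and none higher. With quantile scaling 5 were lower (31.2%, against 21.4% of all genes) and 1 higher (6.25%, against 16.8%). The 4 grouped here as the SNX-RGS family, Snx13, Snx14, Snx19 and Snx25, were all lower, with a median of -0.59. Snx14, which tethers the endoplasmic reticulum to lipid droplets, had signals of 328.4 and 333.7 in the knockdown, against 569.3 and 551 in the control, a log2 fold change of -0.73 ± 0.09 (adjusted p = 2.45e-05, limma). Snx19, which tethers endolysosomes to the endoplasmic reticulum, had signals of 187.8 and 168.4 in the knockdown, against 286.7 and 288.8 in the control, a change of -0.65 ± 0.11 (adjusted p = 0.000366). In both genes the groups were well apart, but the second tested probe set of Snx19 read -0.13 and did not pass, and the mean of its probe sets was -0.39. Snx13 read -0.52 ± 0.10 (adjusted p = 0.000783) at its brightest probe set and 0.05 and 0.16 at the other two, and the mean of its probe sets (-0.11) did not pass. Snx25 (-0.35 ± 0.11, adjusted p = 0.0195) lost its call with quantile scaling (-0.16), without knockdown replicate 1 (-0.38, adjusted p = 0.0521), without knockdown replicate 2 (-0.31) and without control replicate 1 (-0.26).

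Snx12, a small PX protein close to the retromer adaptor Snx3, had signals of 296.1 and 273.3 in the knockdown, against 473.8 and 523 in the control. It fell by 0.77 on the log2 scale (SE 0.10, adjusted p = 3.45e-05, limma), and its second probe set was lower by a similar -0.80. Snx3, which carries the Wnt sorting receptor Wls with retromer, had signals of 3445.5 and 3492.6 in the knockdown, against 3949.5 and 3922.6 in the control. The change of Snx3 was small, -0.18 ± 0.05 (adjusted p = 0.00951), about that of the median gene, and it did not pass with quantile scaling (-0.07), with centring on the tested probe sets (-0.05) or without knockdown replicate 1 (-0.17, adjusted p = 0.0687). Snx21, a dim member with signals of 14.1 and 27.6 in the knockdown, against 38 and 48.1 in the control, read -0.70 ± 0.23 (adjusted p = 0.0315). Snx21 moved to -1.07 with a pseudocount of 1 and -0.34 with one of 64, and lost its call with quantile scaling, without knockdown replicate 1 (-0.43, adjusted p = 0.24) and without control replicate 2 (-0.58, adjusted p = 0.164). Snx11 (-0.40 ± 0.13, adjusted p = 0.0284) lost its call without knockdown replicate 1 (-0.29) or control replicate 1 (-0.30) and with quantile scaling (-0.25).

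The FERM-domain sorting nexins bind the sorting motifs of receptors. Snx17, which hands integrins and LRP1 to the retriever complex, had signals of 2307.6 and 2313.5 in the knockdown, against 3323.6 and 2955.9 in the control, a fall of 0.44 on the log2 scale (SE 0.06, adjusted p = 9.77e-05, limma). Snx27, which links retromer to receptors with a PDZ-binding tail, read -0.10 ± 0.11 and 0.11 at its 2 tested probe sets, and neither passed. Among the members that did not pass, Snx16 had signals of 481.3 and 390.1 in the knockdown, against 436.4 and 413.2 in the control at its brightest probe set (0.03 ± 0.10), with overlapping groups, while a second one was called higher at 0.45 (adjusted p = 0.00301). Snx10, which acts on the vacuolar proton pump, read 0.17 ± 0.11 and passed as higher with quantile scaling (0.34) and with centring on the tested probe sets (0.30). Snx15 (-0.12), Snx22 (0.16), Snx24 (-0.16) and Snx29 (-0.49 ± 0.27, with signals of 8.8 and 20.1 in the knockdown against 31.9 and 20.9 in the control) did not pass either. Over all 28 measured sorting nexins, 14 (50%) were lower, against 32.9% of all genes, none was higher and the median was -0.32. Quantile scaling left 8 lower (28.6%, against 21.4% of all genes) and 3 higher with a median of -0.17, and spike-in scaling 16 lower (57.1%, against 42.2%) and none higher.

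Retriever is a trimer like retromer, of Vps26c, Vps35l and Vps29. Vps26c was below the filter. Vps35l had signals of 156.4 and 163.5 in the knockdown, against 230.7 and 227.5 in the control, at its brightest probe set, and was lower by -0.48 ± 0.11 (adjusted p = 0.00384, limma). A dimmer probe set was called in the opposite direction, with 54.4 and 53.3 in the knockdown against 32.8 and 30.6 in the control (0.55, adjusted p = 0.031), and the remaining one read -0.22 and did not pass. As the mean of the 3, Vps35l read -0.05 (adjusted p = 0.781), so its direction depended on the probe set.

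HOPS and CORVET share a core of Vps11, Vps16, Vps18 and Vps33a. To this core Vps39 and Vps41 add binding to late endosomes and lysosomes, and Vps8 binding to early endosomes. Of the 7 genes 3 (42.9%, against 32.9% of all genes) were lower and none higher, with a median of -0.31 that moved to -0.18 with quantile scaling. Vps16, the core subunit that holds the fusion regulator Vps33a, had signals of 371.4 and 386.8 in the knockdown, against 776.2 and 764.3 in the control. The mean signal in the knockdown was 0.492 times that in the control, with a log2 fold change of -0.99 ± 0.08 (adjusted p = 1.33e-06, limma). Vps33a itself had 85.5 and 62.8 in the knockdown, against 77.5 and 76.6 in the control, overlapping, at -0.06 ± 0.16.

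Vps11, a scaffold of the core, had signals of 411.4 and 387.5 in the knockdown, against 620.5 and 565.8 in the control, a change of -0.55 ± 0.09 (adjusted p = 0.000269, limma). A second Vps11 probe set was also called lower (-0.66) and the last read -0.57 without passing. Vps39, which binds Rab7, had signals of 304.7 and 246.2 in the knockdown, against 452.5 and 376.3 in the control, a change of -0.56 ± 0.12 (adjusted p = 0.0021). The second Vps39 probe set read -0.03, the mean of both was -0.30, and the call was lost without the intensity trend (adjusted p = 0.0574). Vps8 (-0.31), Vps41 (-0.04) and Vps18 (0.32) did not pass at their brightest probe sets. For Vps41 a dimmer one was called higher at 0.64 (adjusted p = 0.0209), and for Vps8 a dimmer one was called lower at -0.45 (adjusted p = 0.0297).

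ESCRT-I and ESCRT-II, which bind ubiquitinated cargo and start the bud, were represented by Vps28, the 4 Vps37 paralogues, Vps25 and Vps36. Of these 7, 4 (57.1%) were lower and 1 (14.3%) higher, against 32.9% and 8.95% of all genes. With quantile scaling 2 were lower (28.6%, against 21.4% of all genes) and 1 higher (14.3%, against 16.8%). The Vps37 paralogues, which take the same place in ESCRT-I, were called in opposite directions. Vps28, the core subunit that connects ESCRT-I to ESCRT-II, had signals of 874.6 and 848.3 in the knockdown, against 1105.5 and 1170.9 in the control, a fall of 0.40 on the log2 scale (SE 0.07, adjusted p = 0.000616, limma). Vps37a had signals of 125.6 and 148.6 in the knockdown, against 71.6 and 89.7 in the control, a rise of 0.67 ± 0.15 (adjusted p = 0.00312). Its other 2 tested probe sets read 0.10 and -0.01, and as the mean of all 3 the gene did not pass (0.25, adjusted p = 0.162).

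Vps37d, a dim member, had 34.6 and 29.8 in the knockdown, against 61.7 and 63 in the control, with no overlap and a change of -0.70 ± 0.18 (adjusted p = 0.00749, limma). Without knockdown replicate 2 Vps37d did not pass (-0.63, adjusted p = 0.0512), and with a pseudocount of 64 it read -0.39. Vps37c (-0.45 ± 0.10, adjusted p = 0.00364) did not pass with quantile scaling (-0.27) or without knockdown replicate 2 (-0.33, adjusted p = 0.0515). Vps37b (-0.37 ± 0.13, adjusted p = 0.0397) did not pass with quantile scaling (-0.24), without knockdown replicate 1 (-0.43, adjusted p = 0.0791), without knockdown replicate 2 (-0.31) or without control replicate 1 (-0.27). The ESCRT-II genes did not pass, at -0.31 ± 0.18 for Vps25 and 0.07 ± 0.10 for Vps36.

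ESCRT-III filaments, built of CHMP proteins, close the neck of the bud, and the Vps4 ATPases take the filaments apart. On the deposited scale this group held 3 of the 5 rises among the members, and with quantile scaling 3 of 9. Of its 12 genes 3 (25%, against 8.95% of all genes) were higher and 1 (8.33%, against 32.9%) lower, with a median of -0.12. With quantile scaling 3 were higher (25%, against 16.8% of all genes) and 0 lower (0%, against 21.4%). The median turned to 0.03 with quantile scaling and 0.01 with centring on the tested probe sets. With spike-in scaling it was -0.27, with 3 higher (25%, against 4.05% of all genes) and 5 lower (41.7%, against 42.2%). Chmp1a, a late subunit that recruits Vps4, had signals of 410.2 and 453.2 in the knockdown, against 226.8 and 245.1 in the control. It was higher by 0.83 ± 0.10 (adjusted p = 2.8e-05, limma), the largest rise of the 72. Chmp1b, its paralogue, had signals of 162.1 and 173.4 in the knockdown, against 97.4 and 105.8 in the control, a rise of 0.64 ± 0.13 (adjusted p = 0.00127), with the same 0.64 at its second probe set. In these CHMP1 genes both knockdown arrays lay above both control arrays at each tested probe set.

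The 2 paralogous ATPases were called in opposite directions. Vps4b had signals of 591.1 and 605.1 in the knockdown, against 400.7 and 365.3 in the control, a rise of 0.62 ± 0.09 (adjusted p = 9.37e-05, limma). Its second tested probe set read 0.32 and did not pass (adjusted p = 0.233). Vps4a had signals of 572 and 604 in the knockdown, against 727.3 and 763.3 in the control, a fall of 0.33 (SE 0.08, adjusted p = 0.00438). Vps4a kept its sign in every alternative but did not pass with quantile scaling (-0.15, adjusted p = 0.143) or without the intensity trend (adjusted p = 0.0643).

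The other 8 CHMP genes did not pass at their brightest probe sets. Chmp4b, the main polymer of the filament, had signals of 2640.8 and 2560.1 in the knockdown, against 3031.9 and 2574.1 in the control, overlapping, at -0.10 ± 0.07. Chmp2a and Chmp3, its partners in the filament, read -0.14 ± 0.09 and -0.17 ± 0.12. Chmp2b read 0.12 ± 0.12 at its brightest probe set, and its second probe set, with 115.7 and 122.8 in the knockdown against 85.6 and 80.9 in the control, was called higher by 0.45 (adjusted p = 0.0201). Chmp5 (-0.10), Chmp6 (-0.25), Chmp7 (-0.15) and Chmp4c (-0.21) all lay below 0 without passing, Chmp6 nearest to the threshold (adjusted p = 0.0525). Over the 19 ESCRT genes 4 (21.1%) were higher and 5 (26.3%) lower, against 8.95% and 32.9% of all genes. Quantile scaling left the 4 rises and 2 falls (21.1% and 10.5%, against 16.8% and 21.4% of all genes). Spike-in scaling left 4 rises and 9 falls (21.1% and 47.4%, against 4.05% and 42.2%). The number of falls thus moved with the scale and the number of rises did not.

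GARP joins Vps51, Vps52, Vps53 and Vps54, and in the related EARP complex Vps50 takes the place of Vps54. Of the 5 genes 2 (40%, against 32.9% of all genes) were lower and none higher. Vps52 had signals of 149.2 and 130.1 in the knockdown, against 206.5 and 309.7 in the control, a change of -0.79 ± 0.16 (adjusted p = 0.00133, limma). The control arrays of Vps52 were far apart from each other, and the value was -0.52 without control replicate 2. The probe set of this value ends in _x_at, a mark for probes that may bind other transcripts, and the other one read -0.31 and did not pass (adjusted p = 0.118). Vps54 had 364.1 and 370.5 in the knockdown, against 490.2 and 475.1 in the control (-0.38 ± 0.09, adjusted p = 0.00375), and did not pass with quantile scaling (-0.20). The second tested probe set of Vps54 did not pass, and the mean of both was -0.28, still called lower. Vps53 (-0.31, adjusted p = 0.0575), Vps50 (0.02) and Vps51 (0.00) did not pass, both of the last with overlapping groups.

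The VPS13 proteins are long bridges that carry lipids between membranes. Vps13d, which acts in the upkeep of mitochondria, had signals of 119.9 and 104.6 in the knockdown, against 266.6 and 279.5 in the control. This was the largest fall among the members, -1.17 ± 0.12 (adjusted p = 6.84e-06, limma), and the groups were far apart. Its second tested probe set read -0.33 and did not pass (adjusted p = 0.18), and the mean of both was -0.75. Vps13b, a Golgi protein, had 136.8 and 158.8 in the knockdown, against 243.2 and 220.2 in the control, a change of -0.60 ± 0.12 (adjusted p = 0.00146). Vps13a (-0.13) and Vps13c (0.31) did not pass, and neither did any of their other tested probe sets.

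Of the remaining Vps genes Vps33b, which pairs with Vipas39 in lysosome-related organelles, was lower by -0.45 ± 0.12 (adjusted p = 0.00866, limma), and Vps45, which regulates fusion at early endosomes, by -0.48 ± 0.12 (adjusted p = 0.00632). Neither passed without knockdown replicate 1 (Vps33b at -0.41, adjusted p = 0.0605, and Vps45 at -0.42, adjusted p = 0.0576). Vps9d1, which has the Vps9 domain of Rab5 activators, had 198.7 and 230.3 in the knockdown, against 287.3 and 313.2 in the control, a change of -0.46 ± 0.11 (adjusted p = 0.00499). A second Vps9d1 probe set was also called lower (-0.56), but the gene did not pass with quantile scaling (-0.28) or without knockdown replicate 1 (-0.36, adjusted p = 0.0597). Vps72, a chromatin remodelling subunit that shares the name but not the endosomal role, read -0.26 ± 0.10 and did not pass (adjusted p = 0.0514).

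Many members were measured more than once, which shows how far a call rests on its probe set. Of the 125 tested probe sets of members 12 were called higher, 39 lower and 74 did not pass, against 9.76% higher and 25.8% lower over all tested probe sets. Among the 37 members with several tested probe sets, 4 had all of them called in 1 direction: Chmp1b upward, and Snx12, Vps29 and Vps9d1 downward. In 17 some were called in 1 direction while the rest did not pass, and in 14 none was called. In Snx5 and Vps35l probe sets were called in opposite directions. Of the 5 tested probe sets of Snx5 3 were lower (-0.29, -0.34 and -0.25), 1 read -0.28 without passing, and the dimmest was called higher at 0.63 (adjusted p = 0.0497) with signals of 36 and 26.6 in the knockdown against 14.1 and 14.7 in the control. The transcripts each probe set binds were not analysed here.

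**Figure D3:**
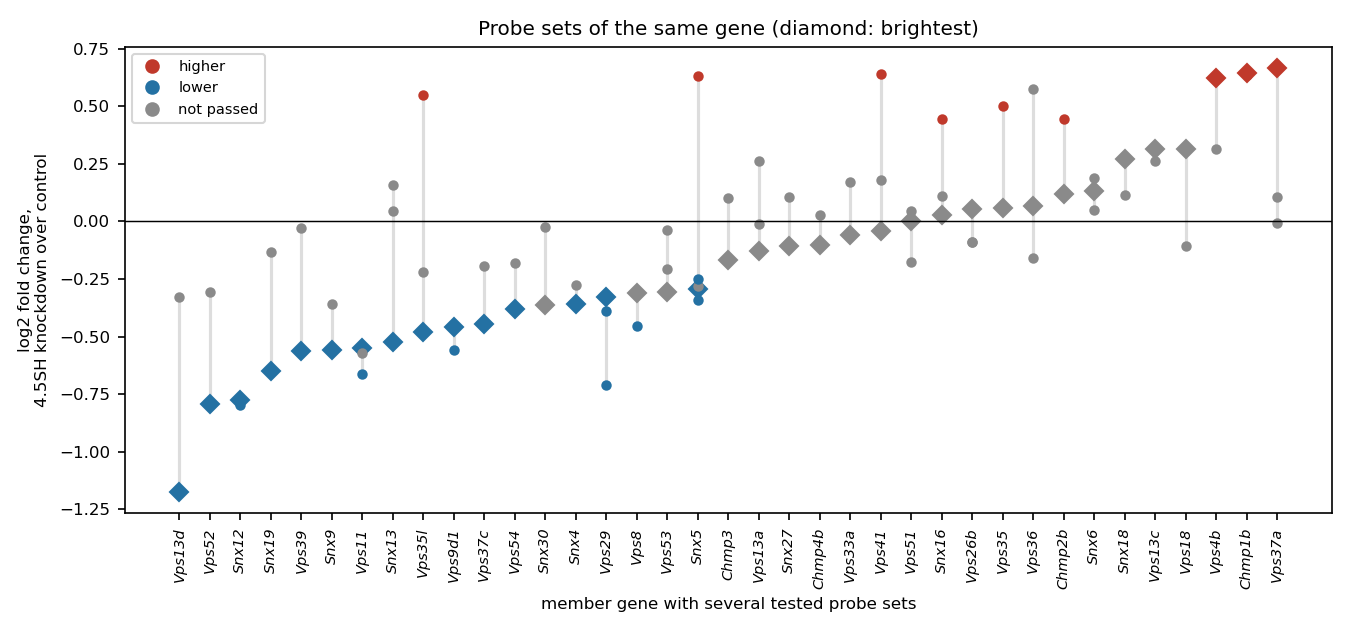
Log2 fold change, knockdown over control, of every tested probe set of the 37 members with several, with 1 column per gene, a diamond for the brightest probe set and colours for the call. Chmp1b lies wholly above 0 and Snx12 and Vps29 wholly below, while Snx5 and Vps35l hold called points on both sides.

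Genes that work with these proteins were counted in lists of their own, to be read beside the median of -0.17 and the 8.95% higher and 32.9% lower over all genes. Of 11 measured partners of retromer 2 were higher and 4 lower, with a median of -0.23. Tbc1d5, the Rab7 inactivator that binds Vps29, had signals of 112.9 and 111.5 in the knockdown, against 247 and 248.8 in the control, a change of -1.04 ± 0.11 (adjusted p = 1.32e-05, limma). Rab7, the late endosomal GTPase that recruits retromer, was lower by -0.55 ± 0.07 (adjusted p = 2.96e-05), at both of its tested probe sets. The WASH complex, which builds actin on retromer domains, was split between directions. Washc3 was lower at -0.60 ± 0.08 (adjusted p = 6.85e-05), while the 2 rises, named here after their values were seen, were Washc4 and Washc5. Washc4 had signals of 160.8 and 205.1 in the knockdown, against 91.8 and 91.8 in the control (0.88 ± 0.14, adjusted p = 0.000249), all 4 of its tested probe sets were higher, and their mean was 1.33. Washc5, at 0.27 ± 0.07 (adjusted p = 0.00814), did not pass with spike-in scaling (0.13), without knockdown replicate 2 (0.25, adjusted p = 0.0643) or without control replicate 2 (0.20, adjusted p = 0.0713).

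Of the 13 retriever partners, which are COMMD and CCDC proteins of the CCC complex and Dennd10, 7 were lower and 1 higher, with a median of -0.37. Commd4 was lower at -0.75 ± 0.08 (adjusted p = 1.35e-05, limma) and Commd2 at -0.56 ± 0.09 (adjusted p = 0.000275). Commd8 was the exception, with 472 and 485.8 in the knockdown against 324.9 and 301.2 in the control (0.59 ± 0.09, adjusted p = 0.000208), and with 0.37 as the mean of its 2 probe sets. Of 15 ESCRT partners 5 were lower, near the 32.9% of all genes, and none was higher, against 8.95%. Their median was -0.165, as over all genes (-0.165). Among the falls was the ESCRT-I subunit Ubap1 (-0.69 ± 0.12, adjusted p = 0.000514), at both of its probe sets. The adaptor Pdcd6ip, also called ALIX (-0.54 ± 0.11, adjusted p = 0.00134), was lower at 3 of its 5 tested probe sets. The deubiquitinase Stambp (-0.49 ± 0.11, adjusted p = 0.00276) was lower at 1 of its 2. Tsg101, the ESCRT-I subunit that binds ubiquitin, read -0.14 ± 0.09 with overlapping groups.

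Sorting nexins need the lipid made by the class III phosphoinositide 3-kinase. Of 10 genes of that kinase and of the enzymes that convert its product 4 were lower and 1 higher, with a median of -0.26. Vac14, the scaffold of the PIKfyve kinase, had 112.9 and 140.2 in the knockdown, against 349.5 and 377.2 in the control, a change of -1.42 ± 0.12 (adjusted p = 1.75e-06, limma). Uvrag, a subunit of the endosomal form of the kinase, was lower at -0.66 ± 0.08 (adjusted p = 2.06e-05), and Nrbf2, a subunit of its autophagic form, was higher at 0.49 ± 0.11 (adjusted p = 0.00262). The catalytic subunit Pik3c3 did not pass, at -0.25 ± 0.11. Of 8 measured HOPS and CORVET partners 5 were lower and 1 higher, with a median of -0.38. Rilp, the Rab7 effector that binds HOPS, had 243.5 and 233.1 in the knockdown, against 505.8 and 487.3 in the control (-1.01 ± 0.09, adjusted p = 3.19e-06). The Rab5 paralogues were called in opposite directions, Rab5c lower at -0.39 ± 0.06 (adjusted p = 0.000329) and Rab5a higher at 0.43 ± 0.08 (adjusted p = 0.00103). Rab5c moved to -0.22 with quantile scaling and Rab5a to 0.28 with spike-in scaling, and both kept their calls.

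Among receptors and transporters that are cargo of these routes, of 9 measured genes 3 were lower and 1 higher, with a median of -0.10. The rise, named here after its value was seen, was the integrin Itgb1 (0.32 ± 0.11, adjusted p = 0.0385, limma). Itgb1 did not pass with spike-in scaling (0.18) or as the mean of its probe sets (0.20), among others. The iron transporter Slc11a2 had 271.4 and 269 in the knockdown, against 611.1 and 520.6 in the control, a change of -1.02 ± 0.10 (adjusted p = 4.93e-06, limma). The transferrin receptor Tfrc was lower at -0.45 ± 0.06 (adjusted p = 7e-05) at its brightest probe set, but the mean of its 3 tested probe sets was 0.05. Sort1, a sorting receptor between Golgi and endosomes, was lower at -0.37 ± 0.10 (adjusted p = 0.0117), but did not pass with quantile scaling (-0.18), as the mean of its probe sets (-0.05), without knockdown replicate 1 (-0.31, adjusted p = 0.0964) or without control replicate 1 (-0.31, adjusted p = 0.0918). The cation-dependent mannose 6-phosphate receptor M6pr had 501.6 and 507.9 in the knockdown, against 518.3 and 484.8 in the control at its brightest probe set. Its groups overlapped, and its other tested probe set was called higher. The cation-independent receptor Igf2r was dim, with 17.7 and 29.5 in the knockdown against 24.2 and 27.8 in the control, and did not pass.

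**Figure D4:**
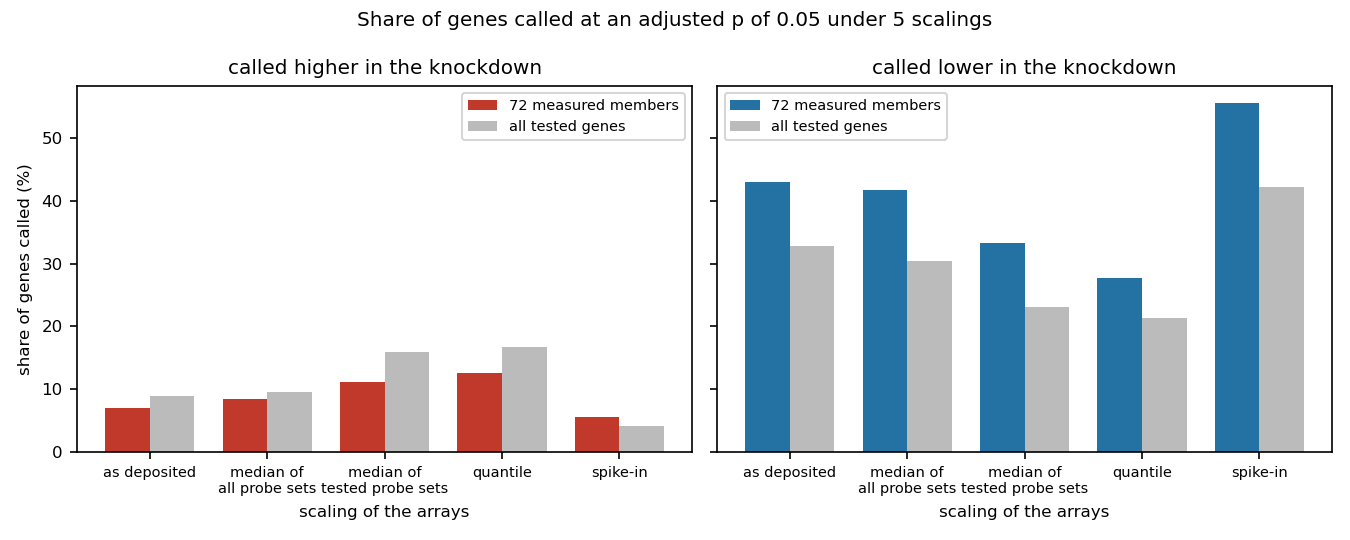
Share of genes called higher (left) and lower (right) in the knockdown, in percent, for the members and for all genes tested, under each scaling of the arrays. With spike-in scaling 55.6% of the members are called lower, and with quantile scaling 27.8%, against 42.2% and 21.4% of all genes.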

How the data were processed

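Cytoplasmic RNA was measured on 4 single-channel Affymetrix arrays (2 knockdown, 2 control). The deposited values are linear intensities, a signal for each probe set, made with MAS5 per the submitters' processing notes. Its version and scaling target, detection calls and a genome build were not found in the labels or headers. No further scaling was applied. Of 45101 probe sets 64 were controls, and 22525 with a mean signal of at least 16.925, the median, were tested. From the deposited signals log2(signal + 16) was computed. The test was two-sided, in limma 3.58.1 under R 4.3.3, by lmFit and eBayes with the variance trended on intensity (13.6 total degrees of freedom) and Benjamini-Hochberg adjustment over all tested probe sets at 0.05. The script was tested on simulated data. Permuting 2 against 2 arrays exactly gives no p under 0.333, and the p-values thus depend on variance shared between probe sets by limma.

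Genes were named from probe sets with 1 symbol in the platform annotation. Another 4 probe sets that name a member beside another gene were not used. The members, the partner lists and the marker lists were chosen with earlier results of these data known. Named by rule were the 4 retromer genes, the 10 largest called falls and up to 10 largest called rises, the smallest p of each group, members with probe sets called in opposite directions, and up to 3 called genes per partner list. Other members were named to account for their group. Same-numbered arrays of the groups deviated with a correlation of 0.007, so no deviation shared by number was seen. This value cannot show whether same-numbered samples were prepared in pairs, of which the labels say nothing. Promoter windows came from RefSeq (GRCm38.p6). Plots were made in Python 3.11.15 with matplotlib 3.10.9.

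The alternatives comprised a pseudocount of 1 or 64; quantile scaling, centring on all or on the tested probe sets, and spike-in scaling; no filter or the brightest 25%; a fit without the intensity trend; the replicate block; dropping probe sets that end in _x_at or _s_at; a fit over genes; the mean of a gene's probe sets; an adjusted p of 0.01; and leaving out each array.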

Additional observations from a re-analysis of the deposited data

How the results depend on the processing

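On the deposited scale 5 members were higher and 31 lower, with a median of -0.26. Quantile scaling gave 9 higher and 20 lower with a median of -0.14, and centring on the tested probe sets 8 higher, 24 lower and -0.13. Spike-in scaling gave 4 higher and 40 lower with a median of -0.39, and the mean of a gene's probe sets 6 higher, 30 lower and -0.18. Without the intensity trend 19 were lower and 4 higher, and at an adjusted p of 0.01 there were 27 and 4. Leaving out each array gave 4 to 5 higher and 22 to 32 lower, with medians of -0.28 to -0.21. The replicate block gave 4 higher and 31 lower; the call it ended was that of Vps26a. Vps35, Snx6, Snx10 and Snx18, not called on the deposited scale, were called higher with quantile scaling. Chmp2a, Chmp4b, Chmp5, Chmp6, Snx2, Snx30, Vps8, Vps53 and Vps72, also not called there, were called lower with spike-in scaling. Over the members and named partners under these alternatives, 1439 single-gene values kept their side of the threshold, 84 lost their call and 41 gained one. The sign changed in 46 of the 1439, all of them values not called under either setting, and in 1 value that had been called: Tfrc, at -0.45 at its brightest probe set, was 0.0499 as the mean of its probe sets. The cause of these differences was not tested. Dim members such as Snx21, Snx29 and Vps37d have signals near the filter, where the pseudocount sets the size of a fold change.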
